A study of Oryza sativa with 8 samples.

Results

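Roots of rice (Oryza sativa) treated with carbon dots were compared between the samplings named D6 and D4. The comparison sets 2 libraries labelled D6_100X against 2 labelled D4_100X and covers every locus with at least 1 FPKM in 2 or more of these 4 libraries. FPKM is the number of fragments scaled to the length of the gene and to the size of the library. Of the 55801 loci in the deposited table, 22111 met this rule. All members carry the carbon dot treatment, which the labels call 100X, and both untreated groups, D6_CK and D4_CK (2 libraries each, treatment label normal), are used beside them. Poly(A)-selected RNA from roots was sequenced. The series title places the carbon dots, which are nanometre-sized carbon particles, in a seed priming experiment on root growth. The labels give no cultivar, age or dose and do not define D4, D6 or 100X, so these stay names. They also do not say that replicates came from separate plants, so the p-values measure the spread between libraries, which may be technical.

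Root growth rests on divisions in the meristem, on cell expansion, for which expansins loosen the wall while cellulose synthases lay down new cellulose, and on differentiation, in which xylem and sclerenchyma cells add a secondary wall. Auxin and cytokinin set the balance between division and differentiation. Mature root zones take up ions and water through transporters and aquaporins in the plasma membrane and tonoplast. Rice roots also secrete deoxymugineic acid to chelate iron and make diterpenoid phytoalexins against microbes.

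Agreement between libraries was measured across the members. Both D6_100X libraries correlated at r = 0.987 on the log2 scale and both D4_100X libraries at 0.966, and r between D6_100X and D4_100X libraries ran between 0.890 and 0.908. The median SD within a group was 0.0861 at D6_100X and 0.145 at D4_100X (log2, n = 2 each). The D4 libraries went by replicate number rather than by treatment: each D4_100X library correlated better with the D4_CK library of its own number (0.985 and 0.990) than with the other D4_100X library. What the number stands for is not given in the labels. The sequencing depth is unknown. All 8 libraries shared 1 FPKM denominator, and the fragments recovered from the FPKM values had a median range of 0.138% between the 8 libraries over the 10000 highest ranks, with 99.7% of these ranks within 1%. Such a shared distribution is what quantile normalisation gives, although no such step is named in the sources used here. An overall rise or fall of root mRNA could not show in these values, and the most abundant loci move in steps between ranks. PAL (phenylalanine ammonia-lyase) stood at 2381 or 2382 FPKM in all 8 libraries, so no change can be read for it.

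The root label was checked against marker genes. NIP2-1, TIP2-1 and NAS2, which are strongly expressed in rice roots, were all abundant. LSI2 and NAR2.1 were also chosen as root markers, and their values are not given here. Both light-harvesting genes with a matched symbol, CAB2R and LHCP, which mark green shoot, were not members. They summed to 0.142 and 0.177 FPKM at D6_100X, against 0.0708 and 0 FPKM at D4_100X. Of the 4 germinating seed markers (2 amylases and 2 glutelins), GLUA2 was the only member, and the 4 summed to 5.65 and 2.95 FPKM at D6_100X, against 3.06 and 2.199 FPKM at D4_100X. With whole roots, a smaller share of a cell type and less RNA per cell of that type cannot be told apart in any of the values below.

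At D6_100X, 3297 members were higher and 3452 were lower than at D4_100X, together 30.5% of the members (14.9% higher and 15.6% lower). The test was limma on log2(FPKM + 1) in a single fit of all 8 libraries, with Benjamini-Hochberg adjustment over 22794 tested loci and a threshold of 0.05. A log2 fold change on this scale understates the change of low genes. Among those called, 1465 rose and 1087 fell by a log2 fold change of at least 1, and 360 rose and 215 fell by at least 2. The median over all members was -0.04. The share of members called grew with abundance. Of the members with a mean under 5 FPKM, 12% were higher and 11.1% lower, and of those with 100 FPKM or more, 20.3% were higher and 22.5% lower. In 31.5% of the members both D6_100X libraries lay above both D4_100X libraries, and in 36.8% both lay below.

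The count rested on both D6_100X libraries. It was 3065 without D6_100X replicate 1 and 2852 without D6_100X replicate 2, and 2308 members (1257 higher and 1051 lower) were called in every fit with 1 of the 8 libraries left out. In all, 19832 members reached 1 FPKM in all 4 libraries. Another 550 reached it in both D6_100X libraries and in no D4_100X library, and 478 the other way round, so these had to differ. At the edge, 164 loci had their second highest value between 1 and 1.05 FPKM and 157 loci just outside had it between 0.95 and 1 FPKM.

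**Figure D1:**
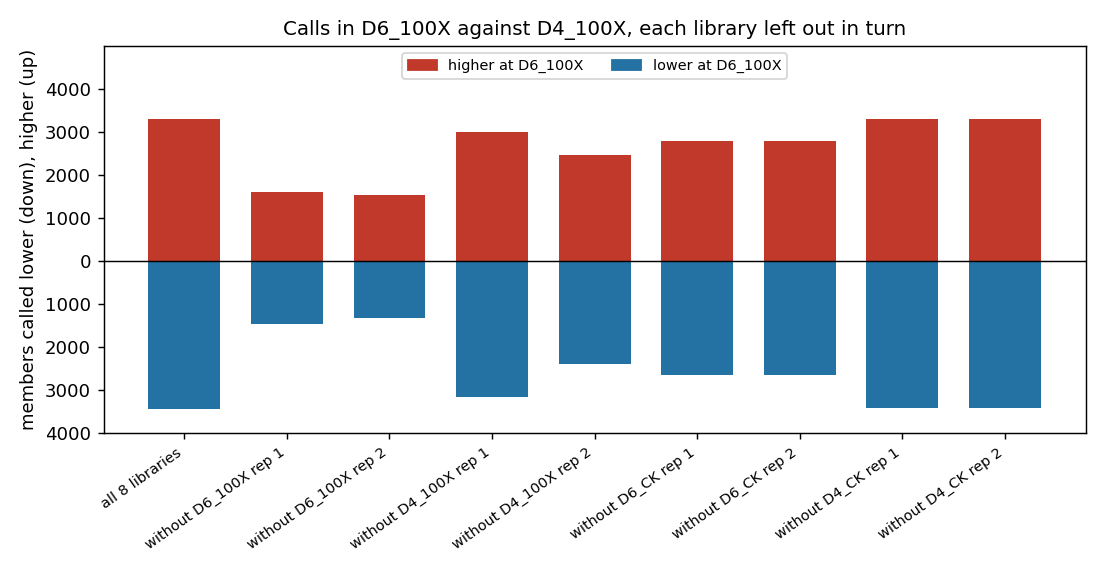
Number of members called higher (upward bars) and lower (downward bars) at D6_100X than at D4_100X with all 8 libraries and with each library left out. The counts dropped most without a D6_100X library, to 1605 higher and 1460 lower without replicate 1 and to 1528 higher and 1324 lower without replicate 2.

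On the log2(FPKM + 1) scale, the called member with the greatest rise was LOC_Os11g24140, at 54.1 and 106 FPKM at D6_100X, against 1.04 and 0.110 FPKM at D4_100X (log2 fold change 5.67 ± 0.41 SE, limma adjusted p = 0.000576). LOC_Os10g41980 was at 149 and 97.8 FPKM at D6_100X, against 2.84 and 1.94 FPKM at D4_100X (5.18 ± 0.28, adjusted p = 0.000295). Both were low in each D4_100X library and high in each D6_100X library. The greatest fall among called members on this scale was that of LOC_Os01g11730, at 13.7 and 11.9 FPKM at D6_100X, against 293 and 314 FPKM at D4_100X (-4.47 ± 0.19, adjusted p = 0.000257). LOC_Os05g12240 was at 2.08 and 2.19 FPKM at D6_100X, against 29.6 and 54.8 FPKM at D4_100X (-3.72 ± 0.51, adjusted p = 0.00339). These 4 were chosen among called loci whose groups do not overlap. All 4 calls held with any library left out, and in the controls the log2 fold changes had the same signs (2.80, 1.91, -1.93 and -2.05). The files and the reference table used here do not name these loci.

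The genes described below come from lists of 417 loci, of which 332 had a matched symbol and 291 of these are members. List counts cover only these 291. Over all members 14.9% were called higher and 15.6% lower, and a list count near these shares is not a result about that list. The shares grow with abundance, and no list count was tested against them. Loci without a matched symbol were left out whatever their values, which leaves some lists thin. Groups without overlap were common over all members (31.5% above and 36.8% below), so where stated below this adds little to a call.

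Of 8 listed secondary cell wall loci 4 had a matched symbol, and these 4 members were all lower at D6_100X, with a median log2 fold change of -2.14 against -0.04 over all members. BC1, a COBRA-like protein that secondary wall cellulose needs, was at 11.3 and 8.29 FPKM in the D6_100X libraries, against 89.3 and 83.9 FPKM in the D4_100X libraries (log2 fold change -3.03 ± 0.17 SE, limma adjusted p = 0.000305). The D6_100X libraries held little of it, and the groups were far apart. CESA7, a secondary wall cellulose synthase and the most abundant of the list, was at 64.3 and 47.3 FPKM at D6_100X, against 289 and 217 FPKM at D4_100X (-2.16 ± 0.21, adjusted p = 0.00122). CESA9, another of the same complex, was at 56.0 and 35.7 FPKM at D6_100X, against 226 and 172 FPKM at D4_100X (-2.12 ± 0.24, adjusted p = 0.00184). CESA4, the remaining subunit, fell by 2.02 on the log2 scale. All 4 calls held with any library left out. In the controls the same 4 were lower at D6_CK, with a median of -1.18.

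Of 9 primary wall genes, 7 fell and none rose (median -1.05). CESA1, a primary wall cellulose synthase and the most abundant, was at 145 and 141 FPKM in the D6_100X libraries, against 298 and 317 FPKM in the D4_100X libraries (log2 fold change -1.10 ± 0.10 SE, limma adjusted p = 0.000987). CESA2 was at 4.60 and 4.08 FPKM at D6_100X, against 10.7 and 13.6 FPKM at D4_100X (-1.30 ± 0.15, adjusted p = 0.00197). CSLF6, which makes mixed-linkage glucan, a polymer typical of grass walls, was at 79.4 and 76.1 FPKM at D6_100X, against 157 and 216 FPKM at D4_100X (-1.23 ± 0.15, adjusted p = 0.00245). In each of the 3 both D6_100X libraries lay below both D4_100X libraries. CESA3, CESA5, CESA6 and CESA8 fell by between 0.72 and 1.08 on the log2 scale. The members that did not pass were CSLA1 (-0.09) and CSLD2 (-0.14). All 7 calls held with any library left out, and in the controls 7 of the 9 fell, with a median of -0.65.

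Of 7 phenylpropanoid and lignin members 3 fell and none rose (median -0.42). 4CL4, which activates coumarate for lignin, was at 36.1 and 31.3 FPKM at D6_100X, against 48.1 and 48.5 FPKM at D4_100X (log2 fold change -0.51 ± 0.09 SE, limma adjusted p = 0.00931). CAD2, which makes the lignin alcohols, was at 241 and 243 FPKM at D6_100X, against 369 and 314 FPKM at D4_100X (-0.49 ± 0.11, adjusted p = 0.0171). COMT1, a methyltransferase of the same route, was at 1069 and 989 FPKM at D6_100X, against 1430.0 and 1334 FPKM at D4_100X (-0.42 ± 0.13, adjusted p = 0.0468). The groups did not overlap in any of the 3, but leaving out 1 library ended the calls of 4CL4 (adjusted p = 0.0648 without D6_100X replicate 2), CAD2 (adjusted p = 0.0509 to 0.0922 without D6_100X replicate 1 or 2 or D4_100X replicate 1) and COMT1 (adjusted p = 0.0504 to 0.231 with any 1 library left out). Of 8 listed flavonoid loci only 2 had a matched symbol, and both fell. CHS1, chalcone synthase, which opens the pathway, was at 3.39 and 1.55 FPKM at D6_100X, against 28.1 and 15.3 FPKM at D4_100X (-2.70 ± 0.51, adjusted p = 0.00961). CHI, the isomerase after it, was at 166 and 158 FPKM at D6_100X, against 268 and 236 FPKM at D4_100X (-0.63 ± 0.10, adjusted p = 0.00658). In the controls the median of these 2 was -0.92, and CHS1 was called lower there too. The control values of CHI were 274 and 299 FPKM at D6_CK, against 241 and 239 FPKM at D4_CK (log2 fold change 0.25 ± 0.10, adjusted p = 0.174), the opposite sign. With 1 library left out the calls of CHS1 (adjusted p = 0.0644 without D6_100X replicate 2) and CHI (adjusted p = 0.0537 without D6_100X replicate 2) were lost.

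Expansins loosen the wall. Of 14 alpha-expansins 3 rose and 3 fell (median 0.27), and of 14 beta-expansins and expansin-like genes 4 fell and none rose (median -0.45). EXPA17, known in rice for root hair elongation, was at 3.68 and 7.21 FPKM in the D6_100X libraries, against 27.5 and 90.4 FPKM in the D4_100X libraries (log2 fold change -3.04 ± 0.65 SE, limma adjusted p = 0.0151). EXPA9 was at 9.07 and 14.016 FPKM at D6_100X, against 27.1 and 42.1 FPKM at D4_100X (-1.50 ± 0.27, adjusted p = 0.00816), and EXPA4 at 14.6 and 14.1 FPKM at D6_100X, against 28.9 and 44.4 FPKM at D4_100X (-1.26 ± 0.20, adjusted p = 0.00519). All 3 were low in both D6_100X libraries, without overlap, although the D4_100X replicates of EXPA17 differed widely. The 3 that rose were EXPA2, EXPA6 and EXPA10, by 0.48, 0.82 and 0.86 on the log2 scale. The most abundant alpha-expansin, EXPA11, did not pass, at 74.9 and 68.7 FPKM at D6_100X, against 57.8 and 56.9 FPKM at D4_100X (0.32 ± 0.13, adjusted p = 0.12). Leaving out 1 library ended the calls of EXPA17 (adjusted p = 0.0892 and 0.05 without D6_100X replicate 1 or 2), EXPA2 (adjusted p = 0.0543 to 0.195 without D6_100X replicate 1 or 2, D4_100X replicate 1 or D4_CK replicate 1 or 2), EXPA6 (adjusted p = 0.053 to 0.145 without D6_100X replicate 1 or 2, D4_100X replicate 2 or D4_CK replicate 1 or 2) and EXPA10 (adjusted p = 0.0882 and 0.0569 without D6_100X replicate 2 or D4_100X replicate 2).

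Among the beta-expansins, EXPB3 was at 59.3 and 55.0 FPKM at D6_100X, against 332 and 166 FPKM at D4_100X (-2.02 ± 0.37, adjusted p = 0.0089), and EXPB2 at 26.9 and 39.6 FPKM at D6_100X, against 104 and 163 FPKM at D4_100X (-1.97 ± 0.30, adjusted p = 0.00511). EXPB16 was at 7.04 and 5.03 FPKM at D6_100X, against 14.4 and 15.4 FPKM at D4_100X (-1.19 ± 0.15, adjusted p = 0.00271), and the most abundant, EXPB6, at 110.1 and 120.3 FPKM at D6_100X, against 222 and 288 FPKM at D4_100X (-1.13 ± 0.15, adjusted p = 0.00293). Every D6_100X value of these 4 lay below every D4_100X value. The call lost with 1 library left out was that of EXPB3 (adjusted p = 0.0572 without D6_100X replicate 2). In the controls 2 members of this list were called higher and 1 lower.

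Of 15 cell cycle and DNA replication members 3 fell and none rose, with a median of -0.20. CDKA-2, a cyclin-dependent kinase, was at 10.7 and 12.1 FPKM at D6_100X, against 19.1 and 21.8 FPKM at D4_100X (log2 fold change -0.79 ± 0.11 SE, limma adjusted p = 0.0035). MCM7, a subunit of the replicative helicase, was at 7.76 and 7.36 FPKM at D6_100X, against 10.2 and 10.9 FPKM at D4_100X (-0.43 ± 0.11, adjusted p = 0.0272), and CDKA-1 at 25.4 and 28.8 FPKM at D6_100X, against 34.4 and 35.5 FPKM at D4_100X (-0.36 ± 0.09, adjusted p = 0.0258). PCNA, the sliding clamp of replication and the most abundant, was at 71.6 and 67.5 FPKM at D6_100X, against 66.2 and 64.9 FPKM at D4_100X (adjusted p = 0.553). The CDKA-2 call held with any library left out. Those lost with 1 library left out were CDKA-1 (adjusted p = 0.0516 to 0.152 without D6_100X replicate 1 or 2, D4_100X replicate 1 or 2 or D6_CK replicate 1 or 2) and MCM7 (adjusted p = 0.0956 to 0.141 without D6_100X replicate 1 or 2 or D4_100X replicate 2). Of 7 root patterning genes 1 rose: SCR1, a SCARECROW transcription factor of the endodermis, at 4.38 and 4.34 FPKM at D6_100X, against 2.75 and 2.12 FPKM at D4_100X (0.65 ± 0.14, adjusted p = 0.0176). The library left out mattered for SCR1 (adjusted p = 0.0688 to 0.0894 without D6_100X replicate 1 or 2 or D4_100X replicate 2). CSLD1, a wall synthase that rice root hairs need, was the most abundant and did not pass, at 4.41 and 7.51 FPKM at D6_100X, against 10.024 and 24.9 FPKM at D4_100X (-1.32 ± 0.60, adjusted p = 0.146).

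**Figure D2:**
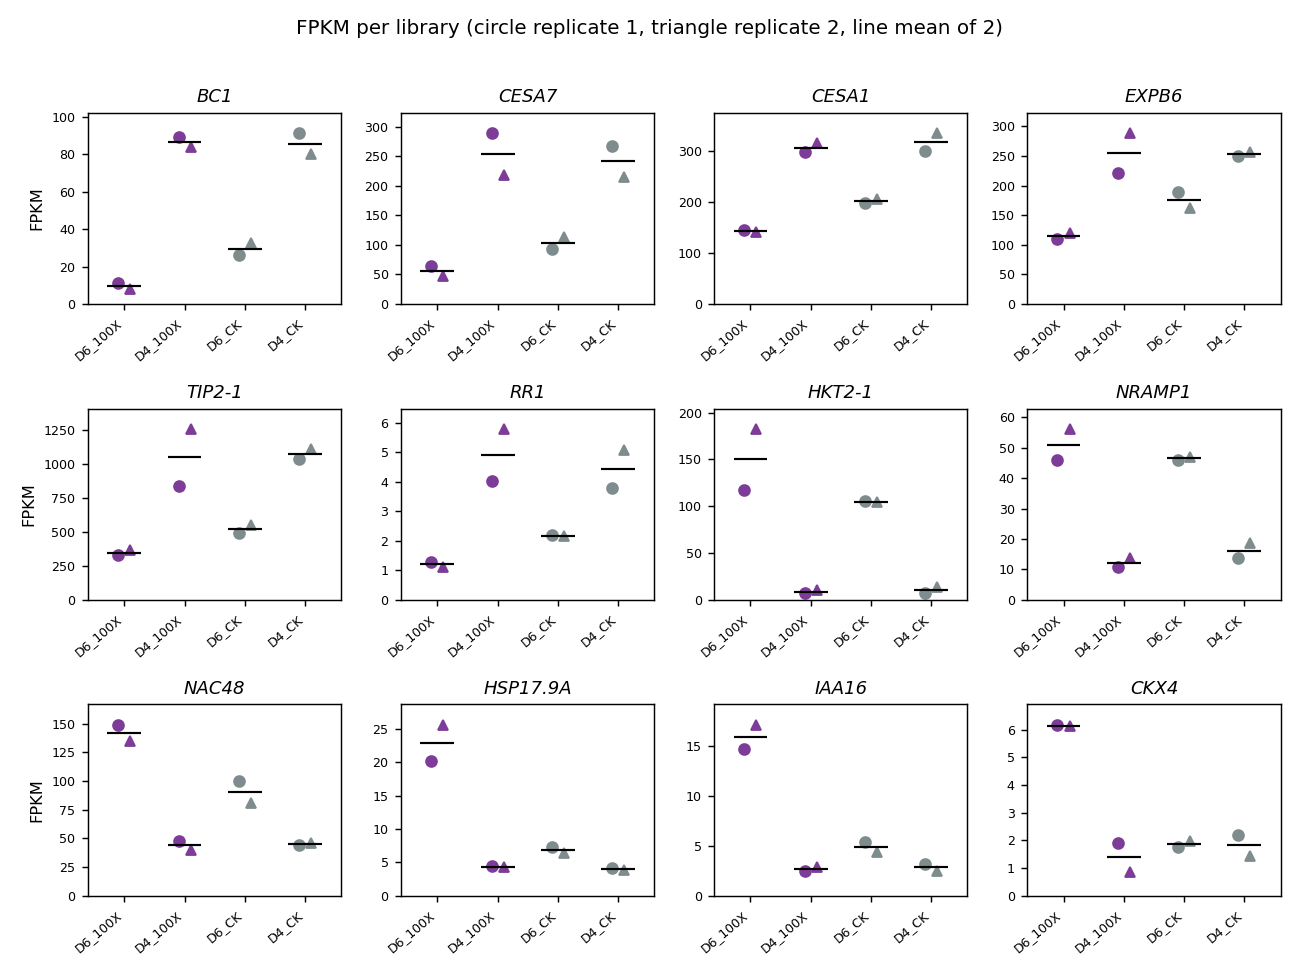
FPKM of 12 named genes in each library, 1 panel per gene with its own linear axis starting at 0, in the order D6_100X, D4_100X (purple), D6_CK and D4_CK (grey). Wall genes such as BC1 were low in both D6_100X libraries and HKT2-1 was high in them, while CKX4, IAA16 and HSP17.9A stood highest at D6_100X among the 4 groups.

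Of 5 potassium and sodium members 3 rose and none fell (median 1.33). HKT2-1, which carries sodium and potassium into roots, was at 118 and 182 FPKM in the D6_100X libraries, against 7.25 and 9.9975 FPKM in the D4_100X libraries (log2 fold change 3.95 ± 0.31 SE, limma adjusted p = 0.000703). The gene was low in both D4_100X libraries, and the groups did not overlap. HAK7, a potassium transporter, was at 66.2 and 79.1 FPKM at D6_100X, against 30.5 and 26.0 FPKM at D4_100X (1.33 ± 0.12, adjusted p = 0.000938), and HAK1, a high-affinity potassium carrier and the most abundant, at 163 and 202 FPKM at D6_100X, against 53.2 and 74.4 FPKM at D4_100X (1.51 ± 0.36, adjusted p = 0.0217). Leaving out 1 library ended the call of HAK1 (adjusted p = 0.0712 to 0.118 without D6_100X replicate 1 or 2 or D4_100X replicate 1). In the controls HKT2-1 had a log2 fold change of 3.2, HAK7 of 0.92 and HAK1 of 1.81, and 4 of the 5 were called higher.

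Of 9 phosphate members 3 rose and none fell (median 0.77, against 0.62 in the controls). PHT1-1, a phosphate transporter, was at 78.8 and 76.5 FPKM at D6_100X, against 23.3 and 25.1 FPKM at D4_100X (log2 fold change 1.64 ± 0.18 SE, limma adjusted p = 0.00156). SPX2, a phosphate-sensing regulator, was at 6.45 and 10.5 FPKM at D6_100X, against 3.31 and 4.29 FPKM at D4_100X (0.95 ± 0.24, adjusted p = 0.026), and PHO1-2, which loads phosphate into the xylem, at 125 and 118 FPKM at D6_100X, against 84.8 and 59.3 FPKM at D4_100X (0.77 ± 0.17, adjusted p = 0.0182). Both D6_100X libraries were above both D4_100X libraries in each. PHT1-8, the most abundant phosphate transporter, was at 128 and 147 FPKM at D6_100X, against 53.1 and 81.8 FPKM at D4_100X and did not pass (adjusted p = 0.0543). The calls lost with 1 library left out were those of SPX2 (adjusted p = 0.13 and 0.0921 without D6_100X replicate 2 or D4_100X replicate 1) and PHO1-2 (adjusted p = 0.0954 and 0.0784 without D6_100X replicate 1 or 2). Of 17 listed nitrogen loci 9 had a matched symbol and 7 of these were members, of which 1 fell and none rose. It was GS1-1, cytosolic glutamine synthetase and the most abundant, at 377 and 385 FPKM at D6_100X, against 533 and 509.7 FPKM at D4_100X (-0.45 ± 0.10, adjusted p = 0.0187), with a control log2 fold change of -0.01. The call depended on the libraries for GS1-1 (adjusted p = 0.054 to 0.108 without D6_100X replicate 1 or 2 or D4_100X replicate 1).

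Iron acquisition genes rose in 5 of 10 members and fell in none (median 0.98, against 0.90 in the controls). NAS2, nicotianamine synthase, which makes the precursor of deoxymugineic acid, was at 745 and 1205 FPKM in the D6_100X libraries, against 189 and 326 FPKM in the D4_100X libraries (log2 fold change 1.93 ± 0.46 SE, limma adjusted p = 0.0215). NAS1, its near-identical neighbour, was at 642 and 1031 FPKM at D6_100X, against 219.5 and 331 FPKM at D4_100X (1.59 ± 0.40, adjusted p = 0.0256), and reads may be split between them. NAAT1, the next enzyme of the route, was at 156 and 273 FPKM at D6_100X, against 40.2 and 78.0 FPKM at D4_100X (1.86 ± 0.47, adjusted p = 0.027). In all 3 the D6_100X libraries were both higher than the D4_100X libraries, and replicate 2 was the higher one in each group. NAS3, another synthase, rose by a log2 fold change of 0.86. Calls that leaving out 1 library ended were those of NAS1 (adjusted p = 0.0517 to 0.143 without D6_100X replicate 1 or 2 or D4_100X replicate 1), NAS2 (adjusted p = 0.0523 to 0.123 without D6_100X replicate 1 or 2 or D4_100X replicate 1), NAAT1 (adjusted p = 0.054 to 0.148 without D6_100X replicate 1 or 2 or D4_100X replicate 1) and NAS3 (adjusted p = 0.0625 to 0.204 without D6_100X replicate 1 or 2 or D4_100X replicate 1 or 2). IRO3, a transcription factor of the iron response, rose by 1.1 and held with any library left out. The iron transporters did not pass, with log2 fold changes of -0.32 for IRT1, 1.38 for IRT2, -0.50 for YSL15 and -0.35 for YSL16.

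Of 10 metal transport and storage members 5 rose and 1 fell (median 0.49). In the controls the median was 0.72, and 4 were called higher. NRAMP1, a metal transporter of the root plasma membrane and the most abundant, was at 46.0 and 56.2 FPKM at D6_100X, against 10.7 and 13.7 FPKM at D4_100X (log2 fold change 1.98 ± 0.18 SE, limma adjusted p = 0.00102). ZIP8 was at 11.3 and 10.9 FPKM at D6_100X, against 2.16 and 3.31 FPKM at D4_100X (1.71 ± 0.28, adjusted p = 0.00584), and ZIP4 at 36.9 and 39.0 FPKM at D6_100X, against 10.7 and 13.986 FPKM at D4_100X (1.56 ± 0.16, adjusted p = 0.00143), both zinc transporters. D6_100X values lay above D4_100X values throughout. ZIP5 and ZIP7 rose by 1.48 and 0.67, and VIT1, which stores iron in the vacuole, fell by 1.0 on the log2 scale. Of the 6 calls, leaving out 1 library ended 1, that of ZIP7 (adjusted p = 0.06 without D6_100X replicate 1).

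Of 16 water channel members 3 rose and 4 fell (median -0.63, against -0.39 in the controls). TIP2-1, a tonoplast aquaporin, was at 329 and 365 FPKM at D6_100X, against 838 and 1254 FPKM at D4_100X (log2 fold change -1.56 ± 0.20 SE, limma adjusted p = 0.00265). PIP1-3, of the plasma membrane, was at 177 and 260.3 FPKM at D6_100X, against 52.5 and 74.0 FPKM at D4_100X (1.77 ± 0.29, adjusted p = 0.00649). Groups did not overlap in either, and both calls held with any library left out. TIP4-2 was at 2.95 and 1.65 FPKM at D6_100X, against 6.04 and 17.896 FPKM at D4_100X (-1.83 ± 0.56, adjusted p = 0.0489), with replicates far apart. Leaving out 1 library ended the call of TIP4-2 (adjusted p = 0.0659 to 0.213 without D6_100X replicate 1 or 2, D4_100X replicate 2 or D4_CK replicate 1 or 2). TIP1-1, the most abundant, was at 1133 and 1281 FPKM at D6_100X, against 1581 and 2199.8 FPKM at D4_100X and did not pass (adjusted p = 0.0695). PIP2-4 and PIP2-5 rose by 0.77 and 1.02, while PIP2-1 and TIP2-2 fell by 0.78 and 0.91 on the log2 scale. PIP2-5 held throughout, whereas leaving out 1 library ended the calls of PIP2-1 (adjusted p = 0.0596 to 0.132 without D6_100X replicate 1 or 2, D4_100X replicate 2 or D6_CK replicate 1 or 2), PIP2-4 (adjusted p = 0.0523 to 0.125 without D6_100X replicate 1 or 2, D4_100X replicate 1 or D6_CK replicate 1 or 2) and TIP2-2 (adjusted p = 0.0509 to 0.132 without D6_100X replicate 1 or 2, D4_100X replicate 2 or D6_CK replicate 1 or 2). Of 4 silicon and boron members 2 rose (median 0.85, against 0.97 in the controls). NIP2-1, the silicon influx channel and the most abundant, was at 584 and 805 FPKM at D6_100X, against 213 and 259 FPKM at D4_100X (1.54 ± 0.27, adjusted p = 0.00756), and NIP3-1, a boron channel, at 82.7 and 99.4 FPKM at D6_100X, against 56.4 and 57.0 FPKM at D4_100X (0.67 ± 0.11, adjusted p = 0.00723). Leaving out 1 library ended the call of NIP2-1 (adjusted p = 0.0531 without D6_100X replicate 2).

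Of 16 listed diterpenoid phytoalexin loci 14 had a matched symbol and 10 of these were members. These 10 had positive fold changes (median 1.6), and 4 rose. CYP99A3, of the momilactone pathway and the most abundant, was at 30.7 and 39.4 FPKM in the D6_100X libraries, against 2.29 and 6.28 FPKM in the D4_100X libraries (log2 fold change 2.87 ± 0.55 SE, limma adjusted p = 0.0106). CPS4, the cyclase that opens that pathway, was at 28.7 and 25.0 FPKM at D6_100X, against 2.67 and 6.27 FPKM at D4_100X (2.43 ± 0.62, adjusted p = 0.0275), and KSL7, a synthase of the phytocassane route, at 9.71 and 5.08 FPKM at D6_100X, against 0.524 and 1.87 FPKM at D4_100X (1.95 ± 0.55, adjusted p = 0.0386). All 3 were low in both D4_100X libraries, whose replicates differed from each other by over 2-fold. CYP76M5, the remaining call, rose by 1.18. None of the 4 calls held throughout, with losses for CYP99A3 (adjusted p = 0.0675 without D6_100X replicate 2), CPS4 (adjusted p = 0.05 to 0.121 without D6_100X replicate 1 or 2, D4_100X replicate 1 or D6_CK replicate 1 or 2), KSL7 (adjusted p = 0.0657 to 0.185 without D6_100X replicate 1 or 2, D4_100X replicate 1 or D6_CK replicate 1 or 2) and CYP76M5 (adjusted p = 0.0558 to 0.185 without D6_100X replicate 1 or 2, D4_100X replicate 1 or 2 or D6_CK replicate 1 or 2). In the controls the median was 1.22, with 0 called in limma and 4 of 10 at an unadjusted p under 0.05.

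Of 20 listed WRKY and pathogenesis-related loci 9 had a matched symbol. Of these 9 members 5 rose and none fell (median 1.56, against 1.19 in the controls). WRKY62, a WRKY transcription factor, was at 30.7 and 27.1 FPKM at D6_100X, against 3.35 and 6.85 FPKM at D4_100X (log2 fold change 2.35 ± 0.41 SE, limma adjusted p = 0.00749), and CHT1, a chitinase, at 70.5 and 71.6 FPKM at D6_100X, against 12.1 and 20.1 FPKM at D4_100X (2.11 ± 0.27, adjusted p = 0.00261). PBZ1, a pathogenesis-related protein, was at 105 and 81.3 FPKM at D6_100X, against 24.128 and 37.5 FPKM at D4_100X (1.59 ± 0.43, adjusted p = 0.0324). Groups did not overlap in any of them. CHT2, the most abundant, was at 368 and 446 FPKM at D6_100X, against 229 and 336 FPKM at D4_100X and did not pass (adjusted p = 0.344). WRKY24 and WRKY71 rose by 1.56 and 1.46. WRKY62, CHT1 and WRKY71 were called with any library left out, whereas this ended the calls of PBZ1 (adjusted p = 0.0589 to 0.151 without D6_100X replicate 1 or 2, D4_100X replicate 1 or D6_CK replicate 1 or 2) and WRKY24 (adjusted p = 0.0682 and 0.0551 without D6_100X replicate 1 or 2).

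Of 19 jasmonate members 7 rose and none fell (median 0.38, against 0.34 in the controls). AOS2, allene oxide synthase of jasmonate synthesis, was at 6.51 and 5.51 FPKM at D6_100X, against 0.433 and 1.64 FPKM at D4_100X (log2 fold change 1.85 ± 0.47 SE, limma adjusted p = 0.0278). TIFY11D and TIFY11C encode JAZ repressors, which jasmonate itself induces. TIFY11D was at 37.6 and 27.4 FPKM at D6_100X, against 12.8 and 11.9 FPKM at D4_100X (1.31 ± 0.20, adjusted p = 0.00519), and TIFY11C at 63.7 and 51.8 FPKM at D6_100X, against 24.8 and 21.0 FPKM at D4_100X (1.29 ± 0.19, adjusted p = 0.0041). TIFY10B, the most abundant, was at 283 and 262 FPKM at D6_100X, against 199 and 164 FPKM at D4_100X (0.58 ± 0.12, adjusted p = 0.0139). In each of the 4 both D6_100X libraries were the higher ones. The calls of TIFY11C and TIFY11D held with any library left out, whereas this ended the calls of AOS2 (adjusted p = 0.0501 to 0.125 without D6_100X replicate 1 or 2, D4_100X replicate 1 or D6_CK replicate 1 or 2) and TIFY10B (adjusted p = 0.0877 and 0.0588 without D6_100X replicate 1 or 2). TIFY11B rose by 0.92, COI1A, a jasmonate receptor, by 0.52 and TIFY6A by 0.40. These 3 calls did not hold throughout either, with losses for TIFY11B (adjusted p = 0.0545 to 0.0904 without D6_100X replicate 1 or 2 or D4_100X replicate 2), COI1A (adjusted p = 0.0725 to 0.165 without D6_100X replicate 1 or 2, D4_100X replicate 1 or D6_CK replicate 1 or 2) and TIFY6A (adjusted p = 0.058 to 0.182 without D6_100X replicate 1 or 2, D4_100X replicate 1 or 2 or D6_CK replicate 1 or 2).

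Of 14 abscisic acid and dehydration members 4 rose and none fell (median 0.87, against 0.21 in the controls). NAC48, a stress-related NAC transcription factor, was at 149 and 135 FPKM at D6_100X, against 47.7 and 39.9 FPKM at D4_100X (log2 fold change 1.68 ± 0.14 SE, limma adjusted p = 0.000745), and NAC71, of the same family, at 67.8 and 87.5 FPKM at D6_100X, against 31.1 and 26.5 FPKM at D4_100X (1.39 ± 0.23, adjusted p = 0.00612). SALT, a salt-induced lectin and the most abundant, was at 391.87 and 536 FPKM at D6_100X, against 226 and 169 FPKM at D4_100X (1.23 ± 0.25, adjusted p = 0.0129). All D6_100X values of the 3 were above all D4_100X values. DREB1C rose by 0.80, close to the threshold (adjusted p = 0.0499). Both NAC calls held with any library left out, whereas this ended the calls of SALT (adjusted p = 0.0816 and 0.0549 without D6_100X replicate 2 or D4_100X replicate 2) and DREB1C (adjusted p = 0.0695 to 0.225 without D6_100X replicate 1 or 2, D4_100X replicate 1 or 2 or D6_CK replicate 1 or 2). The dehydrins and late embryogenesis genes RAB21, RAB16D, LEA3 and DHN1 did not pass.

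Of 10 reactive oxygen members 2 rose and 2 fell (median 0.18). CATA, a catalase and the most abundant, was at 712 and 526 FPKM at D6_100X, against 1020.5 and 967 FPKM at D4_100X (log2 fold change -0.70 ± 0.17 SE, limma adjusted p = 0.0224), and CATB, another catalase, at 232 and 273 FPKM at D6_100X, against 186 and 161 FPKM at D4_100X (0.54 ± 0.15, adjusted p = 0.033). The catalases thus had opposite signs. APX2, an ascorbate peroxidase, was at 535 and 551 FPKM at D6_100X, against 348 and 376 FPKM at D4_100X (0.59 ± 0.15, adjusted p = 0.0252). RBOHB, an NADPH oxidase, fell by 0.51. Leaving out 1 library ended the calls of CATA (adjusted p = 0.0559 to 0.125 without D6_100X replicate 2 or D4_100X replicate 1 or 2), CATB (adjusted p = 0.0644 to 0.182 without D6_100X replicate 1 or 2, D4_100X replicate 2 or D6_CK replicate 1 or 2), APX2 (adjusted p = 0.0548 to 0.124 without D6_100X replicate 1 or 2 or D4_100X replicate 1 or 2) and RBOHB (adjusted p = 0.0635 to 0.0962 without D6_100X replicate 1 or 2 or D4_100X replicate 2). Of 8 fermentation and sucrose members 1 rose, ADH2, alcohol dehydrogenase, at 463 and 620.0 FPKM at D6_100X, against 234 and 156 FPKM at D4_100X (1.48 ± 0.28, adjusted p = 0.00943). The D6_100X libraries were both higher, and leaving out 1 library ended the call of ADH2 (adjusted p = 0.0644 without D6_100X replicate 2). SUS1, a sucrose synthase and the most abundant, was at 942 and 1086 FPKM at D6_100X, against 1048 and 767 FPKM at D4_100X and did not pass (adjusted p = 0.497).

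Heat shock genes rose in 7 of 19 members and fell in 1 (median 0.44, against -0.02 in the controls). HSP17.9A, a small heat shock protein, was at 20.2 and 25.6 FPKM in the D6_100X libraries, against 4.39 and 4.31 FPKM in the D4_100X libraries (log2 fold change 2.15 ± 0.14 SE, limma adjusted p = 0.000412). HSFC1B, a heat stress transcription factor, was at 5.44 and 4.83 FPKM at D6_100X, against 1.06 and 0.456 FPKM at D4_100X (1.82 ± 0.28, adjusted p = 0.00523), and HSFB2C, another, at 14.1 and 15.9 FPKM at D6_100X, against 6.04 and 7.27 FPKM at D4_100X (1.07 ± 0.12, adjusted p = 0.00176). The groups were apart in all 3 genes, and the 3 calls held with any library left out. HSFA2C, HSFA2E, HSFA4D and HSP24.1 rose by between 0.71 and 0.98, and HSP17.7 fell by 0.51 on the log2 scale. HSFA2E held throughout, whereas leaving out 1 library ended the calls of HSFA2C (adjusted p = 0.0503 without D6_100X replicate 1), HSFA4D (adjusted p = 0.0513 to 0.135 without D6_100X replicate 1 or 2, D4_100X replicate 1 or D6_CK replicate 1 or 2), HSP24.1 (adjusted p = 0.0581 to 0.178 without D6_100X replicate 1 or 2 or D4_100X replicate 1) and HSP17.7 (adjusted p = 0.0752 without D6_100X replicate 1). Of the 7 that rose, 5 encode heat stress transcription factors. Such factors also make up much of the list, so this count is not a result about them. The abundant chaperone HSP81-1, of the HSP90 family, was at 122 and 127 FPKM at D6_100X, against 103 and 141 FPKM at D4_100X and did not pass (adjusted p = 0.865).

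Auxin genes moved in both directions, 9 up and 5 down of 30 (median -0.06, against -0.155 in the controls). IAA16, IAA20 and IAA2 encode Aux/IAA repressors, which auxin induces and degrades. IAA16 was at 14.6 and 17.1 FPKM in the D6_100X libraries, against 2.44 and 2.81 FPKM in the D4_100X libraries (log2 fold change 2.21 ± 0.15 SE, limma adjusted p = 0.000508). IAA20 was at 26.5 and 44.1 FPKM at D6_100X, against 13.019 and 9.86 FPKM at D4_100X (1.51 ± 0.24, adjusted p = 0.0058), and IAA2 at 14.8 and 14.9 FPKM at D6_100X, against 4.98 and 5.12 FPKM at D4_100X (1.39 ± 0.09, adjusted p = 0.000469). All 3 were higher in both D6_100X libraries, and the calls held with any library left out. IAA13, the most abundant, was at 185 and 219 FPKM at D6_100X, against 222 and 366 FPKM at D4_100X and did not pass (adjusted p = 0.148). GH3.8, which conjugates auxin to amino acids, rose by 1.37, and the auxin carriers PIN9, PIN5A and PIN2 rose by 1.31, 1.2 and 0.52. PIN1C fell by 0.64, and IAA10, IAA14, IAA24 and IAA31 fell by between 0.39 and 1.07 on the log2 scale. IAA18 and IAA25 rose by 1.16 and 0.67. GH3.8, PIN9, PIN5A and IAA24 held throughout, whereas leaving out 1 library ended the calls of PIN2 (adjusted p = 0.0599 to 0.118 without D6_100X replicate 1 or 2 or D4_100X replicate 2), PIN1C (adjusted p = 0.104 and 0.0613 without D6_100X replicate 1 or D4_100X replicate 1), IAA10 (adjusted p = 0.0958 and 0.0546 without D6_100X replicate 1 or 2), IAA14 (adjusted p = 0.0672 to 0.106 without D6_100X replicate 1 or 2 or D4_100X replicate 2), IAA18 (adjusted p = 0.0693 without D6_100X replicate 2), IAA25 (adjusted p = 0.0974 and 0.0601 without D6_100X replicate 1 or D4_100X replicate 2) and IAA31 (adjusted p = 0.113 and 0.0905 without D6_100X replicate 1 or 2).

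Of 14 cytokinin members 4 rose and 2 fell (median -0.02, against -0.33 in the controls). CKX4 and CKX11 encode oxidases that degrade cytokinin. CKX4 was at 6.17 and 6.12 FPKM in the D6_100X libraries, against 1.90 and 0.861 FPKM in the D4_100X libraries (log2 fold change 1.62 ± 0.24 SE, limma adjusted p = 0.00416), and CKX11 at 20.3 and 20.5 FPKM at D6_100X, against 7.13 and 5.63 FPKM at D4_100X (1.54 ± 0.13, adjusted p = 0.000745). A further oxidase, CKX5, rose by 1.18, and these 3 calls held with any library left out. CKX1, CKX3 and CKX9, of the same family, did not pass. LOG, which activates cytokinin, rose by 0.71. RR1 and RR2 encode type-A response regulators, which cytokinin induces. RR1 was at 1.28 and 1.11 FPKM at D6_100X, against 4.02 and 5.78 FPKM at D4_100X (-1.41 ± 0.19, adjusted p = 0.00321), and RR2, the most abundant, at 26.6 and 25.2 FPKM at D6_100X, against 32.7 and 45.6 FPKM at D4_100X (-0.56 ± 0.15, adjusted p = 0.033). Both were lower in both D6_100X libraries without overlap. The other type-A regulators among the members did not pass. With 1 library left out the calls of LOG (adjusted p = 0.0568 to 0.208 without D6_100X replicate 2, D4_100X replicate 1 or 2 or D4_CK replicate 1 or 2) and RR2 (adjusted p = 0.0613 to 0.151 without D6_100X replicate 1 or 2, D4_100X replicate 2 or D6_CK replicate 1 or 2) were lost.

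Of 5 gibberellin members 2 rose. KAO, kaurenoic acid oxidase of gibberellin synthesis, was at 5.40 and 4.29 FPKM at D6_100X, against 2.42 and 0.993 FPKM at D4_100X (log2 fold change 1.16 ± 0.27 SE, limma adjusted p = 0.0192), and GID1, the gibberellin receptor, at 53.2 and 48.2 FPKM at D6_100X, against 33.3 and 25.6 FPKM at D4_100X (0.77 ± 0.13, adjusted p = 0.00698). SLR1, the DELLA repressor and the most abundant, was at 91.5 and 82.2 FPKM at D6_100X, against 103 and 91.8 FPKM at D4_100X and did not pass (adjusted p = 0.256). Of 8 brassinosteroid and strigolactone members 3 rose. D2, of brassinosteroid synthesis, was at 13.5 and 13.2 FPKM at D6_100X, against 7.14 and 5.59 FPKM at D4_100X (0.97 ± 0.18, adjusted p = 0.00899). D17, of strigolactone synthesis, was at 3.81 and 2.54 FPKM at D6_100X, against 1.54 and 1.28 FPKM at D4_100X (0.78 ± 0.17, adjusted p = 0.0179), and D14, the strigolactone receptor and the most abundant, at 95.0 and 105 FPKM at D6_100X, against 59.3 and 62.7 FPKM at D4_100X (0.70 ± 0.10, adjusted p = 0.00325). Groups did not overlap in these 5. The D14 call held throughout, whereas leaving out 1 library ended the calls of KAO (adjusted p = 0.108 and 0.0649 without D6_100X replicate 1 or 2), GID1 (adjusted p = 0.0516 without D6_100X replicate 1), D2 (adjusted p = 0.056 and 0.0544 without D6_100X replicate 1 or 2) and D17 (adjusted p = 0.0958 and 0.0701 without D6_100X replicate 1 or D4_100X replicate 2). Of 7 ethylene members 0 passed in limma and 0 with voom, with 2 at an unadjusted limma p under 0.05, and EIL1, the most abundant, was at 53.3 and 56.9 FPKM at D6_100X, against 42.9 and 46.6 FPKM at D4_100X (adjusted p = 0.14).

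The 4 genes often used as constant references gave a scale for these changes. ACT1, an actin, fell, at 435 and 449 FPKM at D6_100X, against 593 and 646 FPKM at D4_100X (log2 fold change -0.48 ± 0.11 SE, limma adjusted p = 0.016), and leaving out 1 library ended the call of ACT1 (adjusted p = 0.0573 to 0.1 without D6_100X replicate 1 or 2 or D4_100X replicate 2). RPS27AA, a ubiquitin and ribosomal protein gene and the most abundant of them, was at 662 and 586 FPKM at D6_100X, against 635 and 533 FPKM at D4_100X (adjusted p = 0.711). REFA1 and GOS2, of translation, did not pass either, with log2 fold changes of 0.06 and 0.24.

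**Figure D3:**
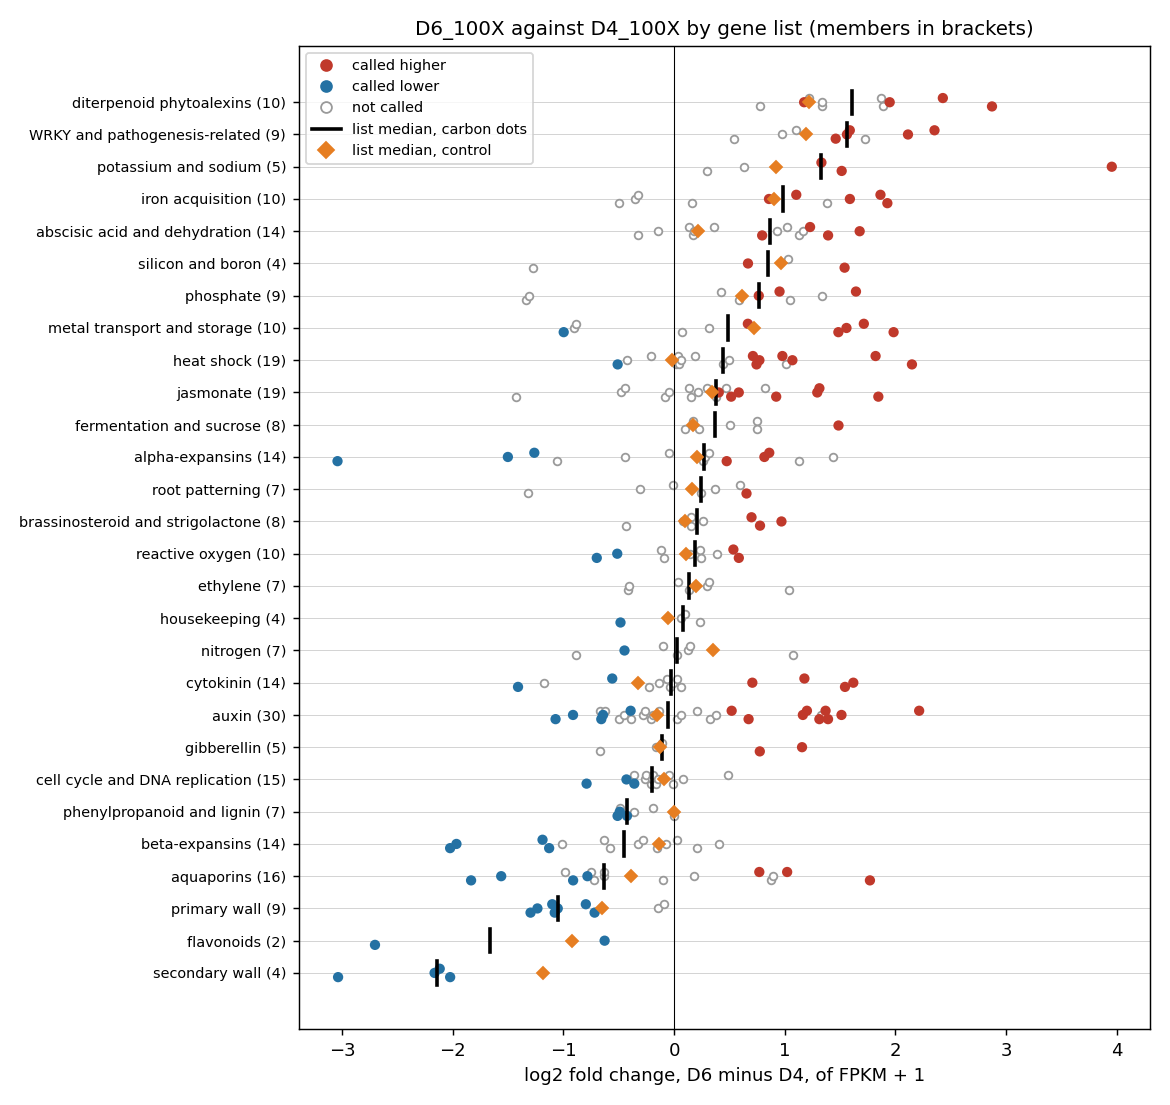
Log2 fold change of FPKM + 1 at D6_100X relative to D4_100X for each member of 28 gene lists (filled red called higher, filled blue called lower, open not called), with the list median in carbon dot roots (black bar) and in control roots (orange diamond). Secondary wall genes had the lowest median (-2.14) and diterpenoid phytoalexin genes the highest (1.6).

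The same step in control roots, D6_CK against D4_CK, asks which of these changes also occurred without treatment. Both comparisons share no library, but a single fit gave both the same estimate of spread for each locus. The deviations of replicate 1 also correlated at 0.606 between D4_100X and D4_CK, so the comparisons are not independent. Their log2 fold changes correlated across the 22111 members at r = 0.829 and rho = 0.790, a description across genes, which are not replicates. In the controls 2286 members passed (10.3%), of which 1225 were higher (5.54%) and 1061 lower (4.80%). In all, 2107 members passed in both, which is 31.2% of the carbon dot calls and 92.2% of the control calls, and 2104 of them had the same sign. Of the carbon dot calls, 97% had the same sign in the controls, called or not.

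The absolute log2 fold change was larger with carbon dots in 92.6% of the carbon dot calls, which were picked for it, and in 74.2% of the control calls, which were not. Its median over all members was 0.31 with carbon dots and 0.22 in the controls. The control count varied more with the libraries: leaving out D6_CK replicate 1 gave 60 and replicate 2 gave 649, leaving out D4_CK replicate 1 gave 370 and replicate 2 gave 1404, and it was 1114 and 1122 without D6_100X replicates 1 and 2. A difference between the numbers of calls is therefore no measure of a difference between treatments.

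**Figure D4:**
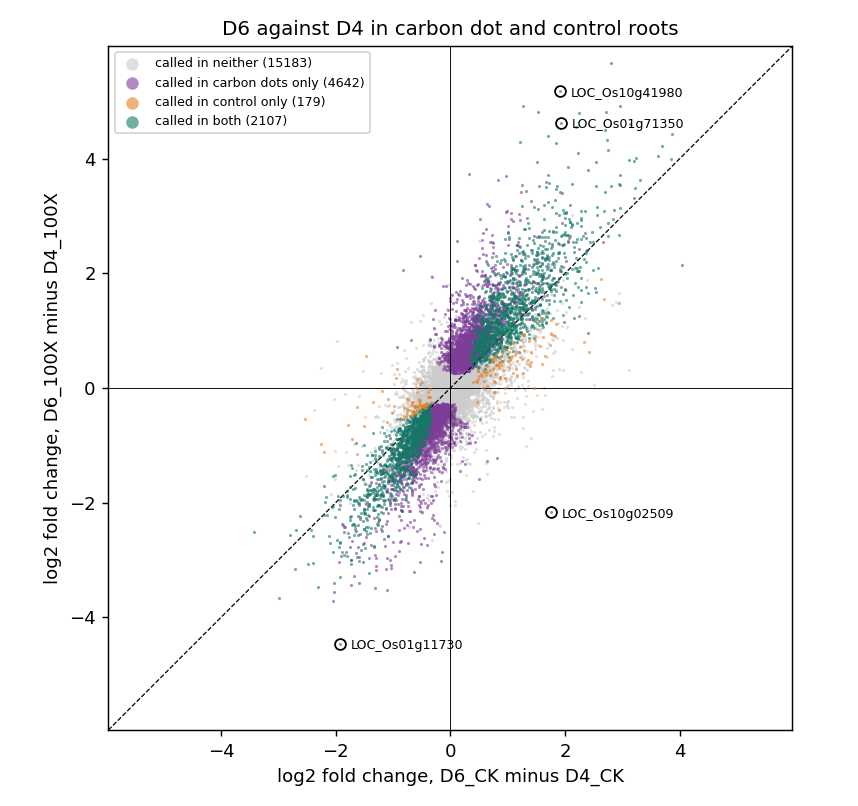
Log2 fold change of FPKM + 1 at D6_100X relative to D4_100X (vertical) against that at D6_CK relative to D4_CK (horizontal) for 22111 members, coloured by the comparison in which they were called, with a dashed line of equal change. Most called members lie on the same side of 0 on both axes and farther from 0 on the vertical one, and LOC_Os10g02509 is the marked locus with opposite signs.

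The difference itself was tested as carbon dots minus control. In limma 2 members passed (0.00905%), with 2086 (9.43%) at an unadjusted p under 0.05. LOC_Os01g71350 was at 52.9 and 53.6 FPKM at D6_100X, against 1.13 and 1.27 FPKM at D4_100X, and at 7.04 and 9.13 FPKM at D6_CK, against 1.27 and 1.44 FPKM at D4_CK (difference 2.69 ± 0.20 SE, limma adjusted p = 0.0397). It rose in both, and more with carbon dots. LOC_Os10g02509 was at 0.803 and 0.423 FPKM at D6_100X, against 5.54 and 6.97 FPKM at D4_100X, and at 5.32 and 3.93 FPKM at D6_CK, against 0.549 and 0.761 FPKM at D4_CK (difference -3.93 ± 0.28, limma adjusted p = 0.0397). It fell with carbon dots and rose in the controls, and it is among the members that by the rule had to differ between D6_100X and D4_100X. Both calls were lost with any of the 8 libraries left out, at adjusted p-values between 0.0636 and 0.366.

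Besides these 2, no locus named here passed this test. With a replicate block within D4 only, LOC_Os01g11730 (difference -2.54, limma adjusted p = 0.0331), LOC_Os10g41980 (3.27, adjusted p = 0.0469), CKX4 (1.58, adjusted p = 0.0396) and HSP17.9A (1.5, adjusted p = 0.0477) passed as well. So did NIP2-2, of the silicon and boron list (-1.20, limma adjusted p = 0.0435). Without the block the adjusted p was 0.0977 for LOC_Os01g11730, 0.103 for LOC_Os10g41980 and 0.71 for NIP2-2. A pass under this block alone is therefore weak. Among the genes with a symbol, the smallest unadjusted p-values were those of HSP17.9A (difference 1.5 ± 0.20, limma unadjusted p = 0.000147, adjusted p = 0.127), IAA16 (1.6 ± 0.22, 0.000189 and 0.139), BC1 (-1.52 ± 0.24, 0.000412 and 0.163) and CHI (-0.88 ± 0.15, 0.00066 and 0.198). Among control libraries HSP17.9A had 7.23 and 6.46 FPKM at D6_CK, against 4.18 and 3.8028 FPKM at D4_CK, and IAA16 had 5.35 and 4.38 FPKM at D6_CK, against 3.16 and 2.50 FPKM at D4_CK. BC1 was at 26.1 and 32.6 FPKM at D6_CK, against 91.0 and 80.0 FPKM at D4_CK. For CKX4 the control values were 1.76 and 1.96 FPKM at D6_CK, against 2.1976 and 1.43 FPKM at D4_CK, with a difference of 1.58 ± 0.34 (limma adjusted p = 0.28). For NAS2 and NIP2-1 the differences were 0.03 ± 0.65 and 0.06 ± 0.38, which do not show that the treatments act alike.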

How the data were processed

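Per the labels' protocols, total RNA of roots was DNase-treated, enriched on oligo d(T) beads and sequenced on Illumina libraries. The authors deposited FPKM for 55801 loci with LOC_Os identifiers, 1 column per library. The submitters' processing notes list featureCounts 1.6.4, SAMtools, HISAT2 and fastp. For settings, strandedness, build and gene models, none is given in the sources used here. Thus related genes may share reads, and genes on opposite strands may not be separated. Whole fragments were recovered from the steps between low values (93.0% of 1115 low loci had a common step within 0.002 steps), which gave 22.87 M per library as the FPKM denominator. Since the recovered values have the same distribution in all libraries, this is not taken as a sequencing depth, and no counting interval is given. The number limits the precision: 2 libraries per group.

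Loci with at least 1 FPKM in at least 2 of 8 libraries (22794) entered lmFit and trended eBayes of limma 3.58.1 (R 4.3.3) on log2(FPKM + 1), as 4 group means with 4 residual degrees of freedom. P-values were adjusted over all of them by the Benjamini-Hochberg method. The script was tested on simulated data.

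Of 417 listed loci, recalled from published identifiers without a source at hand, 332 had their symbol in RefSeq genes of assembly ASM3414082v1 (39387 genes) no farther than 0.01 of a chromosome from where the identifier would lie, which is an indirect match. Only these are named, and 291 are members. The members and lists were chosen with earlier results of these data known, and most loci were listed after the table had been opened. Named were, among called loci without overlap, the 2 highest and the 2 lowest, in each list up to 3 called members with the largest fold change and the most abundant member, and the loci called in the difference. Other list members are given in passing. Alternatives were another pseudocount, other filters, median centring, robust eBayes, voom on recovered fragments, replicate blocks, the 4 libraries of a treatment alone and each library left out.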

Additional observations from a re-analysis of the deposited data

Results flagged for a closer look

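The change of 2 loci at D6 relative to D4 differed between carbon dot and control roots by the test of the difference itself. For LOC_Os01g71350 the difference of log2 fold changes, carbon dots minus control, was 2.69 ± 0.20 SE (limma adjusted p = 0.0397), with a log2 fold change of 4.62 in carbon dot roots and 1.94 in control roots. For LOC_Os10g02509 it was -3.93 ± 0.28 (limma adjusted p = 0.0397), with -2.17 in carbon dot roots and 1.76 in control roots. In both loci the D6 and D4 libraries did not overlap within either treatment. LOC_Os10g02509 was under 1 FPKM in both D6_100X libraries and above it in both D4_100X libraries. It is thus one of the 478 members that had to differ, so lack of overlap adds nothing there. No alternative changed the sign of either difference. Neither passed without a filter (limma adjusted p = 0.0794 for both) or with a pseudocount of 0.1 (0.0844). The same held for the replicate block (0.107) and voom (0.208). Among loci averaging at least 5 FPKM, LOC_Os01g71350 did not pass (limma adjusted p = 0.0821). LOC_Os10g02509 lay below that filter and was not tested there. The adjusted p-values ran between 0.0251 and 0.366 over the alternatives.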

How the results depend on the processing

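The number of members called at D6_100X against D4_100X stayed within 1.5 times the reported 6749 under the alternatives that keep the 4 carbon dot libraries (4694 to 8590), although of the lower members alone the fit of only these 4 libraries called 2180. Leaving out each library in turn gave 2852 to 6727 members, 1528 to 3302 higher and 1324 to 3425 lower. In the controls the same gave 60 to 2868 members, 29 to 1481 higher and 31 to 1387 lower. No filter gave 1280 control calls (671 higher and 609 lower), only the 4 control libraries 1275 (670 higher and 605 lower), and the replicate block within D4 only 4732 (2412 higher and 2320 lower). In the difference, 0 members passed in limma (0 higher and 0 lower) under the 0.1 pseudocount, under voom, for loci averaging at least 5 FPKM, for all loci unfiltered, with the replicate block and with any library left out (0 to 0), with 1308 to 3272 at an unadjusted p under 0.05. The replicate block within D4 only gave 99 (60 higher and 39 lower). With the replicate block 7005 members were called in the carbon dot comparison and within D4 only 8590. No label says what the number marks. The deviations of replicate 1 correlated at 0.037 between D6_100X and D4_100X and at 0.606 between D4_100X and D4_CK, so neither is given as a paired result. The cause of these shifts was not tested.

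Of the 93 named genes, 43 of the 79 called in the carbon dot comparison were called with every library left out. No called gene turned its direction. The uncalled genes that did were PAL (0.0157 under median centring and 0.0001 with voom), SUS1 (-0.0516 without D4_100X replicate 2, range to 0.399 with another library left out), HSP81-1 (-0.182 without D4_100X replicate 1, range to 0.274) and RPS27AA (-0.0279 without D4_100X replicate 2, range to 0.225, and -0.0769 with the replicate block within D4 only). Among alternatives that keep all libraries, calls were lost for 15 named genes without a filter, 4 with a pseudocount of 0.1, 3 with voom, 2 under median centring, 2 with the replicate block and 1 each with robust eBayes, the block within D4 and a mean of at least 5 FPKM. Only the 4 carbon dot libraries lost 16. With 1 library left in a group, that library is assumed to vary like the others. Depth is unknown, so no limit of detection can be given.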
